A study of Drosophila melanogaster with 2 samples.

Results

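The chemosensory receptor genes of Drosophila melanogaster were examined in an anti-GFP chromatin immunoprecipitation of embryos that carry an eGFP fusion of Giant, a basic leucine zipper repressor encoded by a gap gene. The members were the protein-coding genes whose Ensembl symbol begins with Gr, Or or Ir followed by digits and a letter, plus Orco, and they numbered 180 of 13945 protein-coding genes on the main chromosome arms. They comprised 60 gustatory receptor (Gr) genes, 60 odorant receptor (Or) genes with Orco among them, and 60 ionotropic receptor (Ir) genes. The series held 1 group, whole embryos 0 to 18 h old of the strain gt-GFP, with 2 biological replicates. The labels speak of an insertion that targets gt and of transgenic flies, and do not state which regulatory sequence drives the fusion or whether the native gene is intact. A control library was used in making the lists, but no second group was sequenced to compare with, so each value for the receptor genes stands beside the same value over all protein-coding genes, the receptor genes included, and no test was run. Whole embryos mix many cell types over many hours, so strong occupancy in few cells and weak occupancy in many cannot be told apart. The lists hold no expression values, so the labelled material could not be checked against cell type markers.

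Chemosensory receptors let the fly taste and smell. Most Gr proteins detect sugars, bitter compounds or carbon dioxide, Or proteins detect volatile odours together with the co-receptor Orco, and Ir proteins, which are related to ionotropic glutamate receptors, detect acids, amines, salt, temperature and humidity. Each receptor is typically made in a few sensory neurons, those of the larva being formed during embryogenesis and those of the adult during metamorphosis. Many of the genes lie in short tandem clusters.

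The 5 peaks assigned to receptor genes in the pooled list are shown first, since they were all the peaks of that list whose summit, the position of highest signal, was nearest to a receptor gene's transcription start site (TSS) and at most 10000 bp away. Each line below gives the 201 bases centred on a summit, on the plus strand of dm6, read from the Release 6 genome. Capitals mark CAGTG or its reverse complement CACTG, a string that came from an earlier scan of the same pooled peaks and is therefore no independent evidence.
Gr93a, first peak, chr3R:21828284-21828484: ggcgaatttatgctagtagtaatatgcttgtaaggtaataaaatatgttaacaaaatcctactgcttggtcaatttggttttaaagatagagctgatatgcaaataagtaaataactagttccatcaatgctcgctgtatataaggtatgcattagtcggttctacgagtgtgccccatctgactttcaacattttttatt
Gr93a, second peak, chr3R:21828972-21829172: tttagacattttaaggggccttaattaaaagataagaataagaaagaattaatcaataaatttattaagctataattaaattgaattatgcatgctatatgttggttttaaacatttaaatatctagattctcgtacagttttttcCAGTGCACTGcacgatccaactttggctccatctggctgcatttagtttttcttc
Gr89a, chr3R:16497442-16497642: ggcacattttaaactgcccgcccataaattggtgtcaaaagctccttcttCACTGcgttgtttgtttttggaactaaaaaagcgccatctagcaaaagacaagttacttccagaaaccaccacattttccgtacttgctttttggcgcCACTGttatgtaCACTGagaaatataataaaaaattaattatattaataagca
Ir67b, chr3L:10428106-10428306: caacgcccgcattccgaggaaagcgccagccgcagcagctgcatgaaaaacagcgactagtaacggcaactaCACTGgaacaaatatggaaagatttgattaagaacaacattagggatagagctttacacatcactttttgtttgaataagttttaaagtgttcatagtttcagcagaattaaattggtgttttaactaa

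The fifth peak was that of Ir48c, whose sequence is not printed. The first Gr93a summit held no CAGTG within 100 bp, and its 201 bases were 33.3% GC. At the second Gr93a summit the string occurred in both orientations, end to end in CAGTGCACTG, with 28.9% GC. The Gr89a summit held 3 copies with 36.3% GC, and the Ir67b summit held 1 copy with 38.8% GC. The Ir48c summit held none and was 50.2% GC, the highest of the 5. CAGTG was thus present at 3 of the 5 summits (60.0%), beside 926 of all 1825 pooled summits (50.7%), whose mean GC was 38.2%. The Giant site, TTACGTAA with up to 1 mismatch on either strand, was in none of the 5 windows, and 170 of the 1825 summits (9.3%) had it.

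Few receptor genes had a peak. In the pooled list, the longer of the authors' series-level thresholded lists, 4 of 180 receptor genes had an assigned peak (2.22%), beside 1309 of 13945 protein-coding genes (9.39%). The 4 genes were Gr93a, Gr89a, Ir67b and Ir48c, and none of the 60 Or genes was among them. In the conservative list, the shorter of the series-level thresholded lists, 2 receptor genes had a peak (1.11%, beside 8.28% of all genes). In the list of replicate 1 there were 2 (1.11%, beside 6.7%), and in the list of replicate 2 there was 1 (0.556%, beside 6.1%). In all 4 thresholded lists the share was lower among receptor genes than among all genes.

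**Figure D1:**
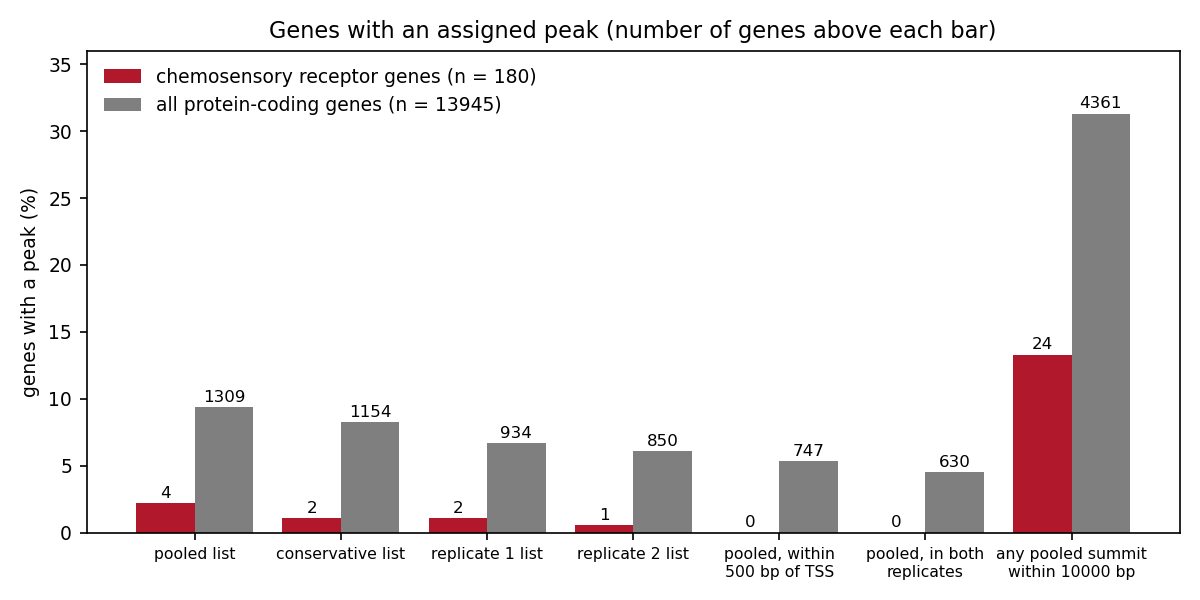
Percentage of genes with an assigned peak under 7 rules, for the 180 chemosensory receptor genes (red) and all 13945 protein-coding genes (grey), with the number of genes above each bar. Every red bar is lower than the grey bar beside it, and no receptor gene had a pooled peak within 500 bp of its TSS or a pooled peak that overlapped a peak of both replicates.

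No pooled peak lay at the start of a receptor gene. Within 500 bp of the TSS, 0 of 180 receptor genes had a pooled peak, beside 747 protein-coding genes (5.36%). Of the 5 receptor peaks, 1 lay between 1000 and 2000 bp from the TSS and 4 between 2000 and 5000 bp, whereas 776 of all 1622 assigned pooled peaks (47.8%) lay within 500 bp. None of the 5 overlapped a peak of both replicates by 1 bp or more, as 698 of the 1622 (43%) did, so that 0 receptor genes had such a peak, beside 630 protein-coding genes (4.52%). The 5 were also low in the ranking, with 4 of them below the median rank of the 1825 main-arm peaks.

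The annotated starts of receptor genes differ from those of other genes in a way that bears on these distances. For 130 of 180 receptor genes (72.2%) the annotation gives no 5' UTR, so that the annotated start is the start of the coding sequence, beside 491 of 13945 protein-coding genes (3.5%). By family this held for 39 Gr, 43 Or and 48 Ir genes. Among genes without a 5' UTR, 3 of 130 receptor genes had a pooled peak (2.31%, beside 2.85% of all such genes), and 11 of the 361 others did (3.05%). Among genes with a 5' UTR, 1 of 50 receptor genes had a pooled peak (2.00%, beside 9.63% of all such genes). The receptor genes' share was therefore near the background of genes annotated like most of them, and below it among the 50 with a 5' UTR. What part incomplete annotation has in the distances was not tested.

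Gr93a encodes a gustatory receptor that bitter-sensing neurons need to respond to caffeine. The gene (FBgn0041229, 3R, 21832503 to 21834013, plus strand, with an annotated 5' UTR) had both of the highest receptor peaks, in the intergenic sequence between it and CASK, which encodes a membrane-associated guanylate kinase. The first peak (21828206 to 21828561, summit 4119 bp upstream of the TSS) had a signal of 99.0 in the pooled list, rank 827 of 1825. Signal here is the authors' deposited value for a peak, of unstated scaling, so it is read only within a list. In replicate 1 this peak passed the threshold with a signal of 38.1, rank 997 of 1163. In replicate 2 the region had a signal of 63.4 in the ranked list and a −log10 IDR of 0.72, under the value of 2 that thresholded peaks reach. The irreproducible discovery rate (IDR) measures how alike a pair of peak sets rank a region, and a higher −log10 IDR means a more reproducible rank.

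The second Gr93a peak (21828894 to 21829249, summit 3431 bp upstream) had a pooled signal of 86.7, rank 1038. Here the replicates were reversed. In replicate 2 the peak passed the threshold with a signal of 61.5, rank 721 of 1100, and in replicate 1 the region had a signal of 20.6, rank 7325 in the ranked list, and a −log10 IDR of 0.36. Each replicate thus placed a different summit of the pair in its thresholded list, although each had a ranked region at both summits. The first peak was in the conservative list and the second was not. In replicate 2 the region left out had the higher signal of the pair.

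**Figure D2:**
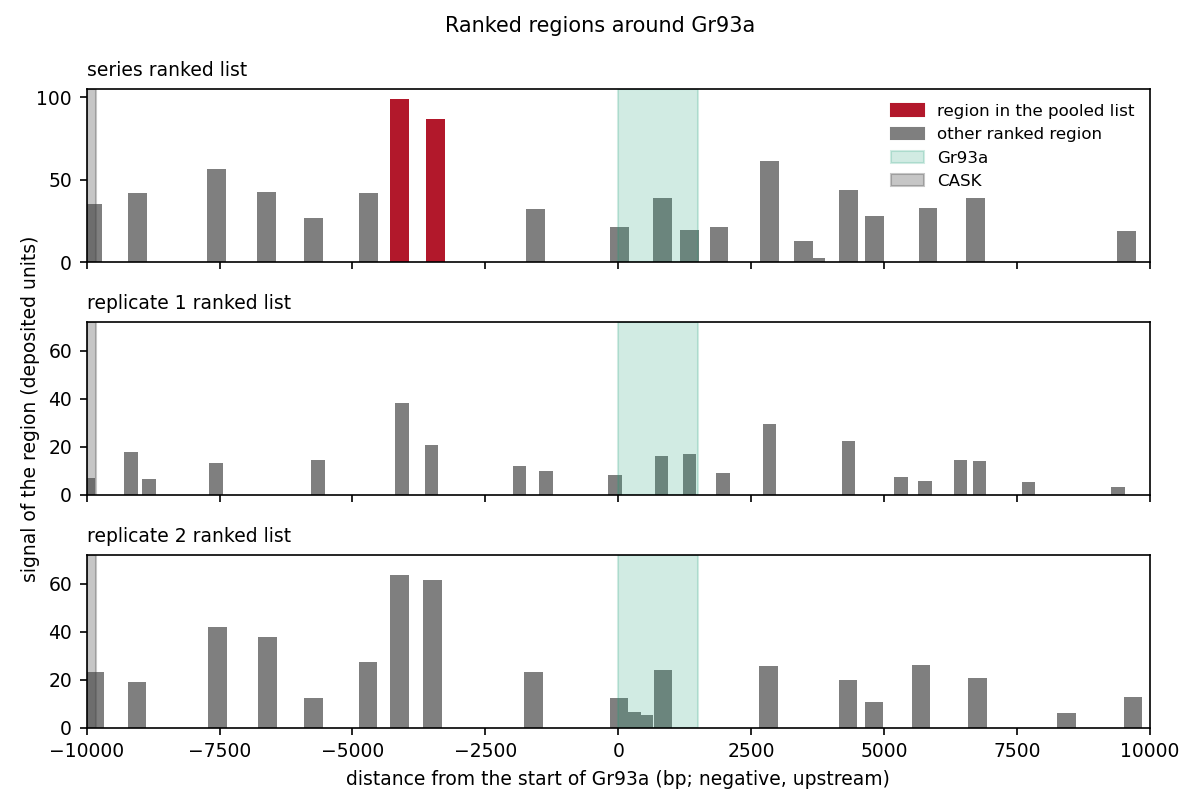
Signal of ranked regions (vertical axis, deposited units) against distance from the start of Gr93a in bp (horizontal axis, negative upstream) in the series ranked list and in the ranked list of each replicate. Bars are as wide as the regions, those in the pooled list are red, the gene is shaded green and the end of CASK dark. The regions 4119 and 3431 bp upstream have signals of 99.0 and 86.7 in the series list, and the region at the start of the gene has 21.1.

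The start of Gr93a itself had a ranked region with a signal of only 21.1 in the series list, 8.5 in replicate 1 and 12.5 in replicate 2. Another region, 2846 bp downstream of the start and beyond the end of the gene, had a signal of 61.3 with a −log10 IDR of 1.49. In replicate 1 it had 29.4, above the 20.6 of the second upstream region, and in replicate 2 it had 25.9. The neighbouring genes Gr93b, Gr93c and Gr93d start 11262, 12762 and 14156 bp from the start of Gr93a on the opposite strand. The strongest region of Gr93d was high in the series ranked list with a signal of 58.7, but the strongest was 22.2 in replicate 1 and 66.0 in replicate 2, the highest receptor value there. Gr93c had a strongest signal of 7.0 in the series ranked list, 9.6 in the other series-level ranked list and 12.6 in replicate 1, and no region in replicate 2. Its value of 7.0 was the lowest among receptor genes in the series ranked list, but in the other series-level list Or33a was lower, at 9.4.

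Gr89a, another receptor found broadly in bitter-sensing neurons (FBgn0038440, 3R, 16497817 to 16498959, minus strand), had a peak 1417 bp downstream of its annotated start. The peak (16497364 to 16497719) lay 275 bp past the end of the gene, in the intergenic sequence before the cadherin gene Cad89D. Its signal was 68.8 in the pooled list, rank 1459. The replicates were far apart at this site. Replicate 1 had a thresholded peak with a signal of 52.2, rank 613 of 1163, while replicate 2 had a region with 21.0, rank 26418 in its ranked list. The value of 52.2 was the highest receptor value of replicate 1.

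Ir67b (FBgn0036083, 3L, 10429689 to 10431983, minus strand) had a peak 3777 bp downstream of its annotated start. The peak (10428028 to 10428383, pooled signal 64.8, rank 1566) was intergenic, 1483 bp past the end of the gene and 5899 bp from the start of Ir67c. Neither replicate had it in its thresholded list, and the ranked regions had signals of 24.6 in replicate 1 and 31.3 in replicate 2. Ir48c (FBgn0033651, 2R, 11787808 to 11789493, minus strand) lies inside ths, which encodes an FGF ligand. Its peak (11786877 to 11787232, pooled signal 63.7, rank 1591) lay in a ths intron, 2438 bp downstream of the annotated Ir48c start. It too was in neither replicate's thresholded list, with ranked signals of 25.2 in replicate 1 and 42.0 in replicate 2, but it was in the conservative list at rank 1428 of 1553. A stronger pooled summit (signal 125.4, rank 555) lay 2379 bp on the other side of the Ir48c start and was assigned to ths, whose TSS was 1506 bp away.

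At a looser IDR of 0.05, 10 receptor genes had a region (5.56%), beside 2279 protein-coding genes (16.3%). The 6 that joined were Or24a, Gr39b, Or98b, Or45b, Or56a and Ir56d, of which Or45b, Or56a and Ir56d were named after their values were seen. Or genes thus first appeared below the authors' threshold, with 4 of the 6. Of these regions, 1 lay near a start, at 94 bp from that of Or45b, a receptor gene of the larval olfactory organ, with a signal of 45.9.

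Set against the sequence available, pooled peaks were also sparse near receptor genes. The sequence nearest to a receptor TSS within 10000 bp came to 1.19 Mb and held 4.2 pooled peaks per Mb, beside 17.3 per Mb over all protein-coding genes. The value was 10.1 per Mb for Gr genes, 0 for Or genes and 4.41 for Ir genes. Room per gene was alike, with a median of 4346 bp for receptor genes and 4327 bp for all genes, and so was GC content, at 42.2% and 42.7%. The median receptor gene lay 45614 bp from the nearest pooled summit, whichever gene that summit belonged to, beside 22065 bp for all genes. The medians were 46616 bp for Gr genes, 47136 bp for Or genes and 40706 bp for Ir genes.

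**Figure D3:**
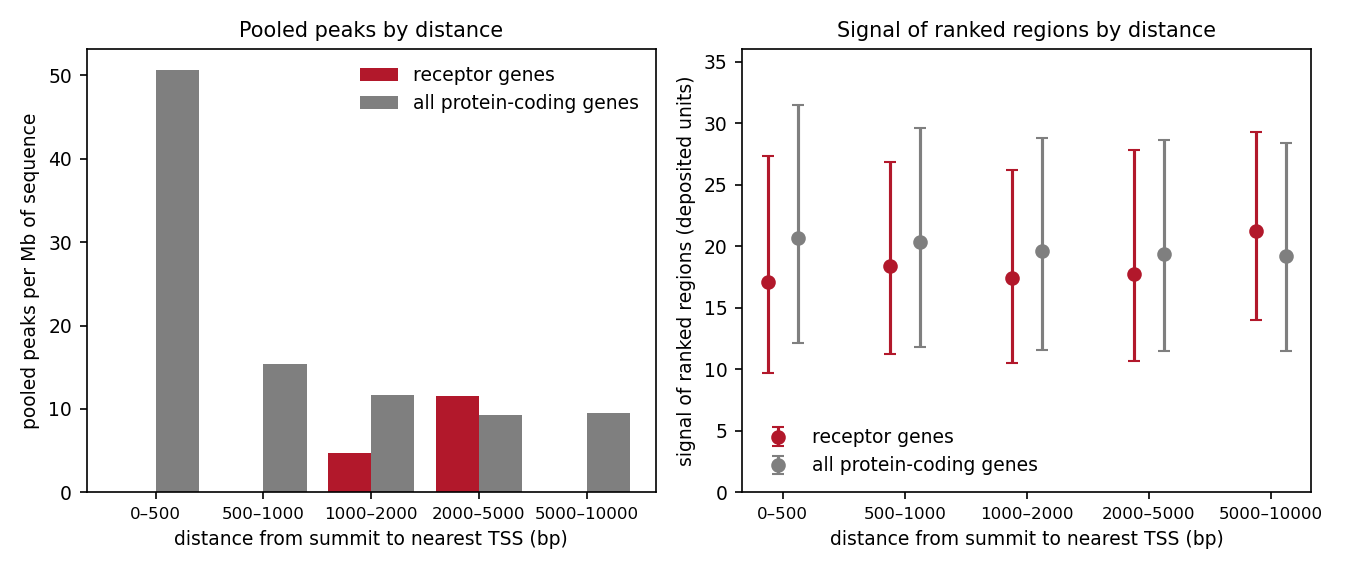
Left, pooled peaks per Mb of sequence by distance from the nearest TSS in bp, for receptor genes (red) and all protein-coding genes (grey). Right, signal of ranked regions of the series list in the same bins, with points at the median and bars from the first to the third quartile. All genes have 50.6 peaks per Mb within 500 bp where receptor genes have 0, and from 2000 to 5000 bp the values are 11.5 for receptor genes and 9.23 for all genes.

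The gap was widest at the annotated start of the gene. Within 500 bp receptor genes had 0 pooled peaks per Mb and all genes 50.6. From 1000 to 2000 bp the values were 4.77 for receptor genes and 11.7 for all genes, and from 2000 to 5000 bp they were 11.5 and 9.23 on 4 peaks of receptor genes. From 5000 to 10000 bp receptor genes again had 0, beside 9.5 for all genes. The annotated start is the coding start for 72.2% of receptor genes and 3.5% of all genes, so the distances are not fully alike. Peaks per Mb were not computed for other genes without a 5' UTR, and the part of annotation in this gap was not tested.

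Below the thresholds receptor genes were not short of regions. In the series ranked list, which keeps regions of any IDR, 174 of 180 receptor genes (96.7%) had a region, beside 90.2% of all protein-coding genes. That list held 145186 regions on the main arms, beside 1825 pooled peaks, so most of its regions did not reach the authors' threshold. Differences in ranked signal between single genes or small groups are therefore mostly differences between regions below the threshold. Within 500 bp of the TSS 140 receptor genes (77.8%) had one, beside 72.3%. Ranked regions numbered 11.80 per 10 kb near receptor genes and 11.39 near all genes in the series list, 8.16 and 8.42 in replicate 1, and 10.07 and 9.97 in replicate 2. The regions were thus about as dense near receptor genes as near all genes. Their median signal was slightly lower, at 18.6 beside 19.7 in the series list, 10.6 beside 11.0 in replicate 1 and 13.3 beside 13.7 in replicate 2. The receptor genes with no region in the series list were Ir31a, Or42a, Gr59f, Or67b, Ir94b and Ir94c, and Or67b and Gr59f had only 648 and 823 bp of nearest sequence.

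The strongest region of each receptor gene had a median signal of 34.0 in the series ranked list, beside 38.7 over all genes. In replicate 1 the medians were 15.9 for receptor genes and 17.7 for all genes, and in replicate 2 they were 23.1 and 25.3. Receptor genes were lower in all 3 lists, by amounts that are small beside the spread among genes, whose quartiles in the series list were 27.1 and 42.8 for receptor genes and 30.1 and 48.7 for all genes. As a percentile among all genes with a region in the same list, the median receptor gene stood at 35.9 in the series list, 37.3 in replicate 1 and 39.9 in replicate 2. Only 2 of 174 were in the top 10% of genes, Gr93a and Gr89a, while 61 (35.1%) were in the lowest 25%. The highest receptor signal was 99.0, against 1211.3 for the highest of all genes.

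**Figure D4:**
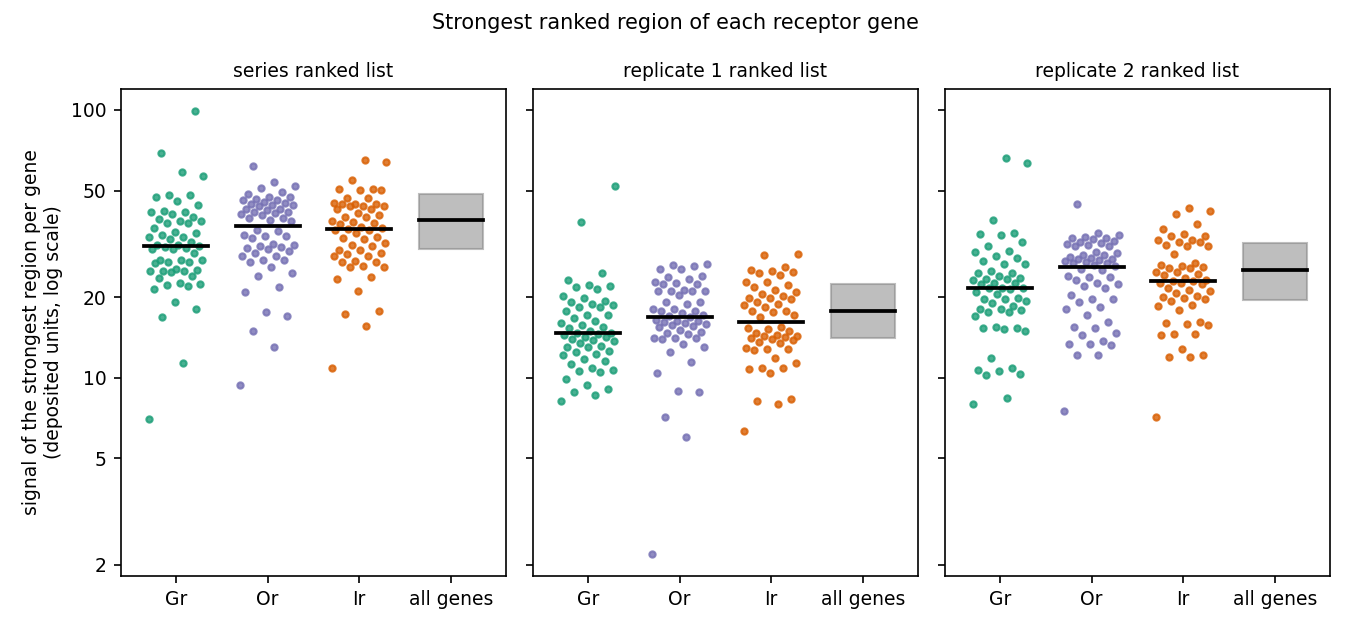
Signal of the strongest assigned region of each receptor gene (vertical axis, deposited units, log scale) for Gr, Or and Ir genes in the series ranked list and each replicate's ranked list. Points are genes, black lines medians, and the grey box spans the first to the third quartile of all protein-coding genes. The Gr median is the lowest of the 3 families in every panel, at 31.0 in the series list beside 38.7 for all genes.

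At the start of the gene the difference was of the same kind. The strongest region within 500 bp had a median signal of 21.8 over 140 receptor genes and 27.6 over 10088 protein-coding genes in the series list. The medians were 11.2 and 13.6 in replicate 1, and 15.5 and 18.2 in replicate 2. The highest such receptor value was 47.6, at Ir48c, beside 1211.3 among all genes. The median of all ranked regions within 500 bp was 17.1 for receptor genes and 20.7 for all genes, and from 5000 to 10000 bp it was 21.2 for receptor genes and 19.2 for all genes. In replicate 2 the medians within 500 bp were 13.4 for receptor genes and 14.4 for all genes, and from 5000 to 10000 bp they were 13.7 and 13.5. In replicate 1 receptor genes were lower in both bins, with 10.6 and 11.7 within 500 bp and 10.4 and 10.6 from 5000 to 10000 bp.

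The families were not alike. Gr genes had the lowest strongest signals, with a median percentile of 27.5, and Or and Ir genes stood at 44.6 and 41.6. In replicate 1 the medians were 29.3 for Gr, 43.8 for Or and 38.8 for Ir genes, and in replicate 2 they were 33.2, 52.1 and 39.3, the same order in both. Gr genes also had the least sequence to hold a region, with a median of 3335 bp nearest to their TSS, beside 5249 bp for Or and 5632 bp for Ir genes. Across the 174 receptor genes the strongest signal and this length had a Spearman rho of 0.59, beside 0.45 over 12584 genes. The part of gene spacing in the order of the families was not tested. Within 500 bp of the TSS, where the room per gene is nearly equal, the median percentiles in the series list were 38.9 for Gr, 32.7 for Or and 30.4 for Ir genes. They were 39.5, 28.7 and 33.4 in replicate 1, and 40.8, 32.8 and 43.1 in replicate 2, so Gr genes were above Or genes in all 3 lists, the reverse of their order by strongest region, and the place of Ir genes varied.

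Among the functional groups, the sugar receptors had the lowest median percentile in the series list. None of their 9 genes had a pooled peak, a count that the 9.39% of all genes leaves uninformative for so few, and they had a median percentile of 13.3 in the series list, 29.4 in replicate 1 and 18.4 in replicate 2. The highest of them was Gr5a, a receptor for trehalose, with a signal of 37.9 at percentile 47.7, and the lowest was Gr64a with 11.3. In the series list all but Gr5a were below the 20th percentile. In the authors' other series-level ranked list the median percentile was 18.0, and Gr43a stood at 37.4 rather than 5.3. In replicate 1 Gr43a, a fructose receptor gene, was at percentile 73.6 and Gr64e at 59.8, and in replicate 2 Gr43a was at 18.9 and Gr64e at 3.9. Gr5a, Gr43a and Gr61a are single genes, and the other 6 form the Gr64 cluster. All 9 had less nearest sequence than the receptor median of 4346 bp, from 1283 bp at Gr61a to 4304 bp at Gr43a. Within 500 bp of the TSS their median percentile was 32.3 in the series list, 45.7 in replicate 1 and 47.3 in replicate 2. These medians rest on 7, 7 and 4 genes, and over all receptor genes they were 33.7, 34.1 and 37.5. The part of gene spacing in the low standing of sugar receptors was not tested.

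The carbon dioxide receptor is a pair of proteins, Gr21a and Gr63a, made in the same antennal neurons, and the ranked signals of the genes differed. Gr21a had a signal of 35.1 in the series list, 17.7 in replicate 1 and 20.8 in replicate 2, close to its start in each. Gr63a had 16.8, 8.6 and 8.0, and it was below the 5th percentile in all 3 lists. Its value was lower than that of Gr21a in each list. All these regions were below the threshold, with a −log10 IDR of 0.58, 0.23 and 0.09 for Gr21a in the same order of lists. For Gr63a it was 0.17, 0.09 and 0.04. The values therefore do not establish a difference in occupancy between the genes.

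The 6 broadly expressed bitter receptors held both Gr genes with a pooled peak, Gr89a and Gr93a (33.3%, beside 9.39% of all genes, on 6 genes). So few genes are too few to read that share, and none of their peaks was in both replicates' thresholded lists. The other genes of this group were in the range of most receptor genes. Gr66a, which most bitter-sensing neurons express, had a signal of 33.4, Gr33a had 29.2, Gr32a had 30.2 and Gr39a had 41.0. The median percentile of the 6 was 45.7.

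None of the 5 co-receptor genes had a pooled peak, beside 9.39% of all genes, and 5 genes are too few to read that count. Orco, on which nearly all Or proteins depend, had its strongest region 483 bp from a TSS with a signal of 39.5 in the series list, and had 14.7 in replicate 1 and 26.8 in replicate 2. Ir25a, the most widely used Ir co-receptor, had 42.8 in the series list, but it was at percentile 3.5 in replicate 1 with a signal of 8.0 and at percentile 51.4 in replicate 2 with 25.6. Ir76b, which acts in taste and amine sensing, had 39.8, 12.8 and 32.6 in the same order of lists. Ir8a, the co-receptor for acids, had 35.5, 14.1 and 22.5, and Ir93a, which acts in temperature and humidity sensing, had 26.0, 8.3 and 18.5. All 5 were below the median gene in replicate 1, and in replicate 2 Orco, Ir25a and Ir76b were above it.

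The 25 Or genes known from larval olfactory neurons were not higher than the rest. Their median percentile was 40.4, beside 52.5 for the other 35 Or genes, with 38.9 beside 56.9 in replicate 1 and 43.1 beside 54.4 in replicate 2, and neither set had a pooled peak. Or24a, a larval receptor gene, was the highest Or gene of the series list with a signal of 61.7, 3219 bp from its start, and a −log10 IDR of 1.79. Its strongest signal was 25.4 in replicate 1, where Or98b was highest with 26.6, and 32.3 in replicate 2, where Or85e was highest with 44.4. The 17 antennal Ir genes had a median percentile of 55.8, beside 38.0 for the other 43, and the only 2 Ir genes with a pooled peak, Ir67b and Ir48c, were among those 43. In replicate 1 the order of the Ir sets turned, at 33.8 for antennal and 43.8 for other Ir genes, and in replicate 2 it was 52.6 and 36.6. Among genes with a region within 500 bp of the TSS, antennal Ir genes were higher in each list. Their median percentile there was 69.1 beside 28.4 in the series list, on 10 antennal and 32 other genes. It was 44.2 beside 31.6 in replicate 1 and 60.5 beside 36.1 in replicate 2. Genes without such a region are left out of these medians, and a smaller share of antennal genes had one. The shares were 58.8% beside 74.4% in the series list, 64.7% beside 65.1% in replicate 1 and 58.8% beside 69.8% in replicate 2.

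The remaining receptor genes of the top 10 by strongest ranked signal were Gr93d (58.7), Gr39b (56.6), Ir48b (54.8), Or65a (54.0) and Or98b (52.2). None of these regions was within 500 bp of a start. The nearest was that of Gr39b at 682 bp, with 20.2 in replicate 1 and 32.2 in replicate 2. Or65a, a receptor gene of trichoid sensilla on the antenna, had its region 7858 bp away.

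The replicates ranked receptor genes only loosely alike. Across the 164 receptor genes with a region in both replicates' ranked lists, the strongest signals had a Spearman rho of 0.43. It was 0.51 across 11892 protein-coding genes, where genes share libraries and neighbouring genes are not independent. In the series list the strongest signal of receptor genes also rose with their length of nearest sequence (rho 0.59), which is the same in both replicates. The part of that length in the likeness of the replicates was not tested. Below the median gene in both replicates were 73 of 164 receptor genes (44.5%), beside 3789 of 11892 (31.9%). In the top 10% in both was 1 receptor gene, Gr93a, beside 842 of 11892 (7.08%). In the top 25% in both were 7 of 164 receptor genes (4.27%), beside 1743 of 11892 (14.7%). They were Gr93a, Ir67b, Ir67c, Ir48c, Or24a, Or85e and Or98b, of which Ir67c and Or85e were named after their values were seen. Gr89a, at percentile 95.7 in replicate 1 and 41.4 in replicate 2, was not among them. A gene's strongest region need not be the same site in each list. In replicates 1 and 2 it lay 3722 and 4486 bp from the TSS for Ir67b, and 5697 and 8421 bp for Ir67c. The distances were 3313 and 5182 bp for Or85e, and 4455 and 2542 bp for Or98b. They were closer for Gr93a (4069 and 4116 bp), Ir48c (2359 and 2446 bp) and Or24a (3209 and 3225 bp).

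**Figure D5:**
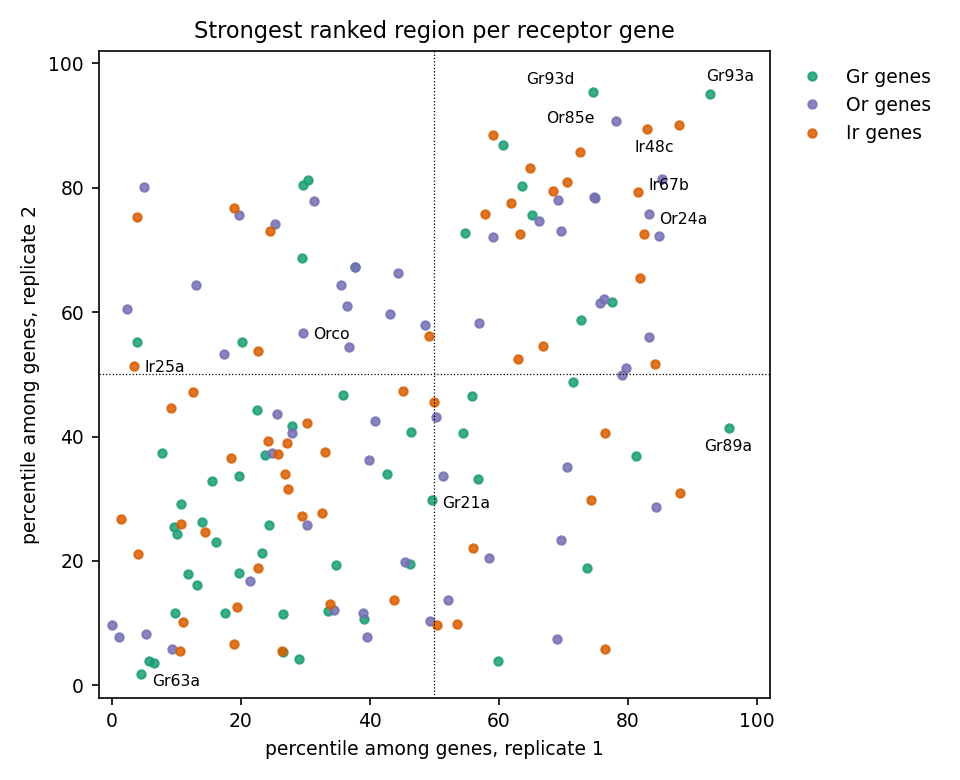
Percentile of each receptor gene's strongest ranked region among all protein-coding genes in replicate 2 (vertical axis) against replicate 1 (horizontal axis), with Gr, Or and Ir genes in different colours and dotted lines at the median gene. Of 164 genes, 73 lie below both dotted lines and 39 above both, and Gr93a lies at 92.7 and 95.1.

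Clusters of receptor genes were examined as groups. Receptor genes within 20000 bp of each other, with at most that gap between neighbours, formed 31 clusters with 90 members, and the other 90 were single. The largest were Gr64a to Gr64f on 3L, sugar receptor genes in 10.8 kb, Ir7b to Ir7g on X in 22.0 kb, and Gr22a to Gr22e on 2L in 10.9 kb. None of the 3 held a pooled peak within its bounds, beside 0.14 pooled peaks per 10 kb over the main arms. At these lengths that absence is uninformative, and no other cluster or single receptor gene held one within its bounds either. The Gr64 cluster held 19 ranked regions with a highest signal of 27.5, the Ir7 cluster 40 with a highest of 36.3, and the Gr22 cluster 13, also with a highest of 36.3. Their ranked regions numbered 17.58, 18.16 and 11.97 per 10 kb, beside 10.84 over the main arms. The median signal of those regions was 11.9, 14.0 and 20.2, beside 19.4 over the main arms. In replicate 1 it was 9.3, 11.9 and 11.0, beside 10.9, and in replicate 2 it was 9.9, 11.0 and 10.3, beside 13.5, so only the Gr64 cluster was below the main arms in all 3 lists. In replicate 1 the regions numbered 9.25, 7.26 and 4.61 per 10 kb in the same order of clusters, beside 7.83 over the main arms, and in replicate 2 they numbered 11.10, 13.16 and 11.97, beside 9.50.

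Pooled summits did lie near more receptor genes, but were nearer to the starts of other genes. Counting any pooled summit within 10000 bp, nearest or not, 24 receptor genes (13.3%) had one, beside 4361 protein-coding genes (31.3%). For 20 of the 24 the summit was nearer to another gene. These 20 genes shared 17 summits, of which 1 was that of Ir67b, near Ir67c. Of the other 16, 12 lay within 500 bp of the nearer gene's TSS and 7 overlapped a peak of both replicates, beside 0 and 0 of the 5 receptor summits. Over all 1622 assigned pooled peaks the shares were 47.8% and 43%.

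The nearest was at Or88a, a receptor gene for fly odours, 667 bp from its start and 457 bp from that of CG12402, with a signal of 102.9. Summits lay 1919 bp from Or85f at the start of CG34117, 2203 bp from Ir68b at the start of yps, which encodes a Y-box RNA-binding protein, and 2545 bp from Gr5a in an intron of Tre1, a receptor gene of germ cell migration. The strongest of the 10 nearest, with a signal of 373.4 and rank 60, lay 2566 bp from Ir25a and 133 bp from the start of tank. Farther away were summits 3739 bp from Gr61a (CG13901), 4307 bp from Ir54a (Vps50), 4626 bp from Gr64f (CG11593), and 5546 and 5677 bp from Gr59f and Gr59e, which share a summit at wmd with a signal of 176.0. Ir25a therefore had no peak of its own although it lay beside a strongly occupied promoter.

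The distance limit of 10000 bp cut through a few such pairs. Just inside it were Gr64d at 8284 bp, Ir100a at 9460 bp and Gr64a at 9772 bp from a pooled summit. Just outside were Gr64c at 10161 bp, Ir92a at 10957 bp and Gr64b at 11608 bp. These were 4 summits, since some of the genes share one, and all were assigned to genes that are not receptor genes, so the limit decided no receptor peak.

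In the series ranked list receptor genes on each arm were low relative to that arm. The median percentile of receptor genes was 22.8 on X, beside 38.2 for all X genes, 27.9 beside 50.4 on 2R, 34.2 beside 52.6 on 3L, 41.0 beside 53.4 on 2L, and 50.9 beside 53.6 on 3R. On 3R, which held 43 receptor genes and 3 of the 5 peaks, the difference was smallest. None of the 25 receptor genes on X had a pooled peak, beside 10.2% of X genes. The same held for the 31 receptor genes on 2L, beside 9.52% of 2L genes.

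Other genes of the chemosensory system, from lists chosen for their known roles, were described in the same way. Odorant binding proteins, which are secreted into sensory lymph, had a pooled peak at 3 of 51 genes (5.88%), Obp56h, Obp56i and Obp99b. The pickpocket sodium channels, which include taste channels, had 1 of 29, ppk itself. Ionotropic glutamate receptors, the relatives of the Ir proteins, had 0 of 11, and regulators of sensory organ formation and receptor choice had 0 of 18. Olfactory accessory genes had 1 of 11, norpA, a phospholipase C gene, whose strongest region reached 307.5. These counts stand beside the 9.39% of all protein-coding genes, a share that would be about 1 gene in the smaller lists. The median percentile of the chemosensory receptors was 35.9 in the series list, 37.3 in replicate 1 and 39.9 in replicate 2. It was 64.2, 42.5 and 58.2 for glutamate receptors, 65.8, 47.3 and 68.0 for the regulators, 38.4, 40.6 and 50.8 for odorant binding proteins, 41.9, 33.0 and 39.8 for pickpocket channels, and 57.2, 71.4 and 65.8 for olfactory accessory genes.

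Promoter windows, from 250 bp before to 50 bp after the annotated start, were scanned for short strings on both strands. The Giant site with up to 1 mismatch was in 19 receptor windows (10.6%), beside 12.2% of all windows, and CAGTG was in 84 (46.7%), beside 46.2%. Neither share was far from that of all windows, but the longer ACAGTG was in 15 receptor windows (8.3%), beside 13.9%. By family the Giant site was in 9 Gr, 5 Or and 5 Ir windows. The exact site was in 1 receptor window, that of Ir94g, beside 63 of 13945, and it began 181 bp before the annotated start. The line gives it as the only exact match, with the site in capitals, on the gene's plus strand in dm6.
Ir94g, chr3R:23483666-23483705: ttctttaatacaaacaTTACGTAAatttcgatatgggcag

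Ir94g had no thresholded peak, and its strongest region within 500 bp had a signal of 24.8 in the series list, 8.1 in replicate 1 and 21.0 in replicate 2. A pair of further strings was added after the peaks had been seen. TATCGATA, the binding site of the transcription factor DREF, was in 1 receptor window, that of Gr68a, beside 1305 of all windows (9.4%). TATAAA, the core of the TATA box, was in 98 receptor windows (54.4%), beside 45.8%, with 47 of 60 Or windows (78.3%), 33 Ir windows (55.0%) and 18 Gr windows (30.0%). Mean GC content of the windows was 39.6 ± 5.8% for receptor genes and 39.1 ± 7.7% for all genes (SD over genes, n = 180 and 13945). Or windows had a mean of 39.0%, and the part of base composition in the TATAAA shares was not tested. A TATAAA match could lie anywhere in the window on either strand, so the shares do not count TATA boxes. Since most receptor genes have no annotated 5' UTR, these windows need not be centred on where transcription begins.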

How the data were processed

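Anti-GFP chromatin immunoprecipitation was sequenced from 2 biological replicates of whole embryos, per the labels, after sonication to 200 to 800 bp. The authors deposited 8 peak lists on dm6: a ranked and a thresholded list per replicate, and 2 of each for the series. Neither aligner nor peak caller is given in the sources used here. The deposited peak signal is the authors' value, of unstated scaling, and was used only within a list. Ranked lists carry, as deposited, the −log10 of the global IDR. The files hold no read counts, so depth is unknown and no interval was computed.

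The Release 6 genome in use here is dm6. Genes and TSSs came from Ensembl release 115, arms 2L, 2R, 3L, 3R, 4 and X, which hold 1825 of 1861 pooled peaks. A summit went to the protein-coding gene or genes whose TSS was nearest, within 10000 bp. A TSS position shared by several genes counts for each, which concerns 6 receptor genes. A gene's strongest region is the assigned ranked region of highest signal. Percentiles are among genes with a region in the same list. Overlap means at least 1 bp. Python 3.11.15, pandas 2.3.3 and numpy 2.4.6 were used, and the assignment was tested on simulated data.

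Named genes were those with a thresholded peak, the 10 highest by strongest ranked signal, the co-receptors and carbon dioxide receptors, the 3 just inside and 3 just outside the distance limit, the 10 nearest to a summit of another gene, and the 3 largest clusters. Other genes named, such as members of a described group, were picked after their values were seen. The receptor genes and the lists were chosen with earlier results of these data known. The 5' UTR and TATAAA counts were added later. Alternatives were other lists, distances, thresholds, windows and ways of assignment. Each replicate's own list served as the analysis without the other.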

Additional observations from a re-analysis of the deposited data

How the results depend on the processing

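The number of receptor genes with a pooled peak, 4, was also 4 with distances of 5000 and 20000 bp and with the TSSs of all annotated genes. It was 2 in the conservative list, 1 to 2 with a replicate left out, 1 above the median signal (beside 5.52% of all genes), 10 at an IDR of 0.05, 1 by gene bodies (beside 11.4%) and 24 for any summit within 10000 bp. Peaks per Mb, 4.2, were 1.68 in the conservative list, 0.84 to 1.68 with a replicate left out, 0.84 above the median signal, 10.9 at an IDR of 0.05, 5.54 and 3.58 at 5000 and 20000 bp, and 5.87 with all annotated TSSs. With a replicate left out, ranked regions per 10 kb were 8.16 to 10.07, the median strongest signal 15.9 to 23.1 and its percentile 37.3 to 39.9, while within 500 bp that signal was 21.8 and its percentile 33.7. The median distance to a summit was 55290 bp in the conservative list and 60724 to 67132 bp with a replicate left out. The Giant site was in 1 window with no mismatch and in 50 windows of 500 bp either side (27.8%, beside 32.9% of all genes), CAGTG was in 160 such windows (88.9%, beside 86.8% of all genes), and ACAGTG was in 15 of the shorter ones (8.3%, beside 13.9%). The replicate lists are shorter and on their own scales, and wider windows hold more sequence. The cause of the other shifts was not tested.

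The receptor counts rest on 5 peaks, none in both replicates' thresholded lists, so 1 peak more or less moves them widely. Without read counts, a low signal at a receptor gene cannot be told from low coverage.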
